A study of Arabidopsis thaliana with 21 samples.

Results

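The 9 genes described here make or transport precursors of salicylic acid, relay immune signals, or serve as markers of that hormone in *Arabidopsis thaliana*. They are *PBS3* (AT5G13320), *ICS1* (AT1G74710), *EDS5* (AT4G39030), *EDS1* (AT3G48090), *PAD4* (AT3G52430), *SAG101* (AT5G14930), *PR1* (AT2G14610), *PR2* (AT3G57260) and *PR5* (AT1G75040), 9 of the 33655 features in the count table. They were chosen by values of these libraries, namely the difference of *PBS3* between the *phyB-GFP* lines, the largest among the 9, and the others were added as its known pathway. The differences between those lines are therefore given as a description, without a test.

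Salicylic acid is a phenolic hormone that plants accumulate when they detect biotrophic pathogens. Most of it is made from isochorismate, which ICS1 forms in the plastid, EDS5 exports and PBS3 joins to glutamate, giving a conjugate that breaks down to salicylic acid. EDS1 is a lipase-like protein that forms separate complexes with PAD4 and with SAG101, and these complexes relay signals from immune receptors and raise salicylic acid synthesis. PR1, PR2 and PR5 are secreted proteins whose transcripts are the usual markers of the hormone.

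RNA-seq libraries of whole seedlings were analysed in 7 groups of 3. Among seedlings given 1 h of red light, the groups were *spaQ* (the quadruple mutant of the *SPA* genes), *cop1-4* (a weak mutant allele of *COP1*), the wild type Col-0, *phyB-GFP ΔC* and *phyB-GFP FL*. The *phyB-GFP* lines were also collected without red light. *phyB-GFP ΔC* carries phyB, a red light receptor, without its C-terminal end and fused to GFP, and *phyB-GFP FL* carries the full-length protein. Both lines lack the endogenous receptors phyA and phyB through *phyA-211* and *phyB-9* in the Col-0 ecotype, a background that Col-0, *cop1-4* and *spaQ* do not share. The labels name 1 line for each transgene and do not name its promoter, so what differs between the lines by construct and what differs by line cannot be told apart. All seedlings were 3 days old, grown without sucrose, and had received far-red light (10 µmol) before darkness. The labels give 8 µmol for the red light, and the study's methods give another rate, so the strength of the light is uncertain. Nothing in the labels says that the replicates were separate cultures, so p-values measure the spread between these libraries, which may be technical.

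Depth was 15678019 to 29523833 counts per library. The third red light library of *phyB-GFP FL* stood apart from the others of its group, and member values that it moved by 0.1 or more on the log2 scale are also given without it. *SPA1* was at 42 to 46 CPM in *spaQ* against 332 to 345 CPM in Col-0 and *SPA3* at 24.8 to 28.1 CPM against 158 to 167 CPM, while *SPA2* (50.8 to 56.4 CPM in *spaQ*, 47 to 53.6 CPM in Col-0) and *SPA4* (68.8 to 73.9 CPM in *spaQ*, 55.8 to 58.4 CPM in Col-0) were not lower. *COP1* was at 40 to 43.1 CPM in *cop1-4* against 72.5 to 76.6 CPM in Col-0. *PHYB* was at 1160 to 1280 CPM in *phyB-GFP ΔC* and 876 to 1430 CPM in *phyB-GFP FL*, against 142 to 150 CPM in Col-0. CPM are read counts relative to library size, scaled by TMM factors over all 21 libraries. The seedling label was checked with markers of flowers and of senescing leaves (2 genes each), whose summed level was at most 0.256 CPM in any library. Expression in whole seedlings was measured, so fewer cells of a type and less RNA per cell cannot be told apart.

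The promoters of the 3 synthesis genes, each lower in *spaQ* than in Col-0, are shown. The 250 bases before the annotated start of each gene are given 5′ to 3′ on the strand of the gene (RefSeq, TAIR10.1), with motif matches in capitals. The PBS3 window is chr5:4267206-4267455 (plus strand), the ICS1 window chr1:28070045-28070294 (plus strand) and the EDS5 window chr4:18185187-18185436 (plus strand).
PBS3: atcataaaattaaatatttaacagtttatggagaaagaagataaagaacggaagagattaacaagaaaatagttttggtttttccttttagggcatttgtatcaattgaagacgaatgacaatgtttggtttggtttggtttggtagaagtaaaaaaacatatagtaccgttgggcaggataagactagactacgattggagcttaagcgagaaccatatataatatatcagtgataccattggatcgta
ICS1: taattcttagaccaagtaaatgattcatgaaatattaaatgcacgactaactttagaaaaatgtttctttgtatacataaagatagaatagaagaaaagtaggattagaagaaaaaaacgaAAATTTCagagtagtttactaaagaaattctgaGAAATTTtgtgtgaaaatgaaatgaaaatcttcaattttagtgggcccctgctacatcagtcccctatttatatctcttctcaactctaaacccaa
EDS5: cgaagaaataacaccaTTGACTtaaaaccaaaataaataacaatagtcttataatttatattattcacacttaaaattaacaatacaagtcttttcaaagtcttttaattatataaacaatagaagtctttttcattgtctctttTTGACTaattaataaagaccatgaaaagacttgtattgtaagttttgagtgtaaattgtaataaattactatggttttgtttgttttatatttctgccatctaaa
The motifs were searched on both strands of windows from 250 bases before to 50 bases after the start, in which they do not overlap one another. The site described for the CBP60g and SARD1 factors was searched as GAAATTT. The W-box of WRKY factors was searched as TTGACC and as the variant of it that reads TTGACT. The site of TGA factors was searched as TGACG, and the G-box of bZIP and bHLH factors as CACGTG. The *ICS1* window held GAAATTT at positions -129 and -96 from the start, and no other member held it, against 14.2% of 27443 protein-coding promoters with at least 1 match. The *EDS5* window held the W-box at positions -234 and -105, and those of *EDS1*, *PAD4*, *PR2* and *PR5* held it at 1 position each, against 32.4% of promoters. The G-box occurred in the *PR2* window (7.68% of promoters) and TGACG in none of the 9 windows (23.1% of promoters). No searched motif was present in the windows of *PBS3*, *SAG101* and *PR1*.

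Among the members with counts in every group, *PBS3*, the glutamate-conjugating enzyme, had the widest range of group means as a fold. It gave 20, 19.6 and 15.9 CPM in the red light libraries of *phyB-GFP ΔC* and 19.1, 24.9 and 13.6 CPM in its dark libraries. In *phyB-GFP FL* it gave 1.87, 2.73 and 1.26 CPM in red light and 2.82, 1.37 and 1.64 CPM in darkness. Every ΔC library was above every FL library in both light conditions. Col-0 had 3.43, 3.73 and 2.28 CPM and *cop1-4* had 1.23, 1.09 and 1.47 CPM in red light. The *spaQ* libraries held 1, 0 and 1 counts, under the 3 counts taken as the floor of detection, which equal 0.123 to 0.137 CPM at their depth. In order of the group means, ΔC in darkness (19.2 ± 5.66 CPM, SD, n = 3) and in red light (18.5 ± 2.28 CPM) overlapped and stood apart from Col-0 (3.1 ± 0.767 CPM). Col-0, the FL groups and *cop1-4* each overlapped with their neighbour in that order, and *spaQ* stood apart at the bottom. *PBS3* lies at chr5:4267456-4271064 on the plus strand, and none of the 50-base windows of its exons occurs in the exons of another gene.

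**Figure D1:**
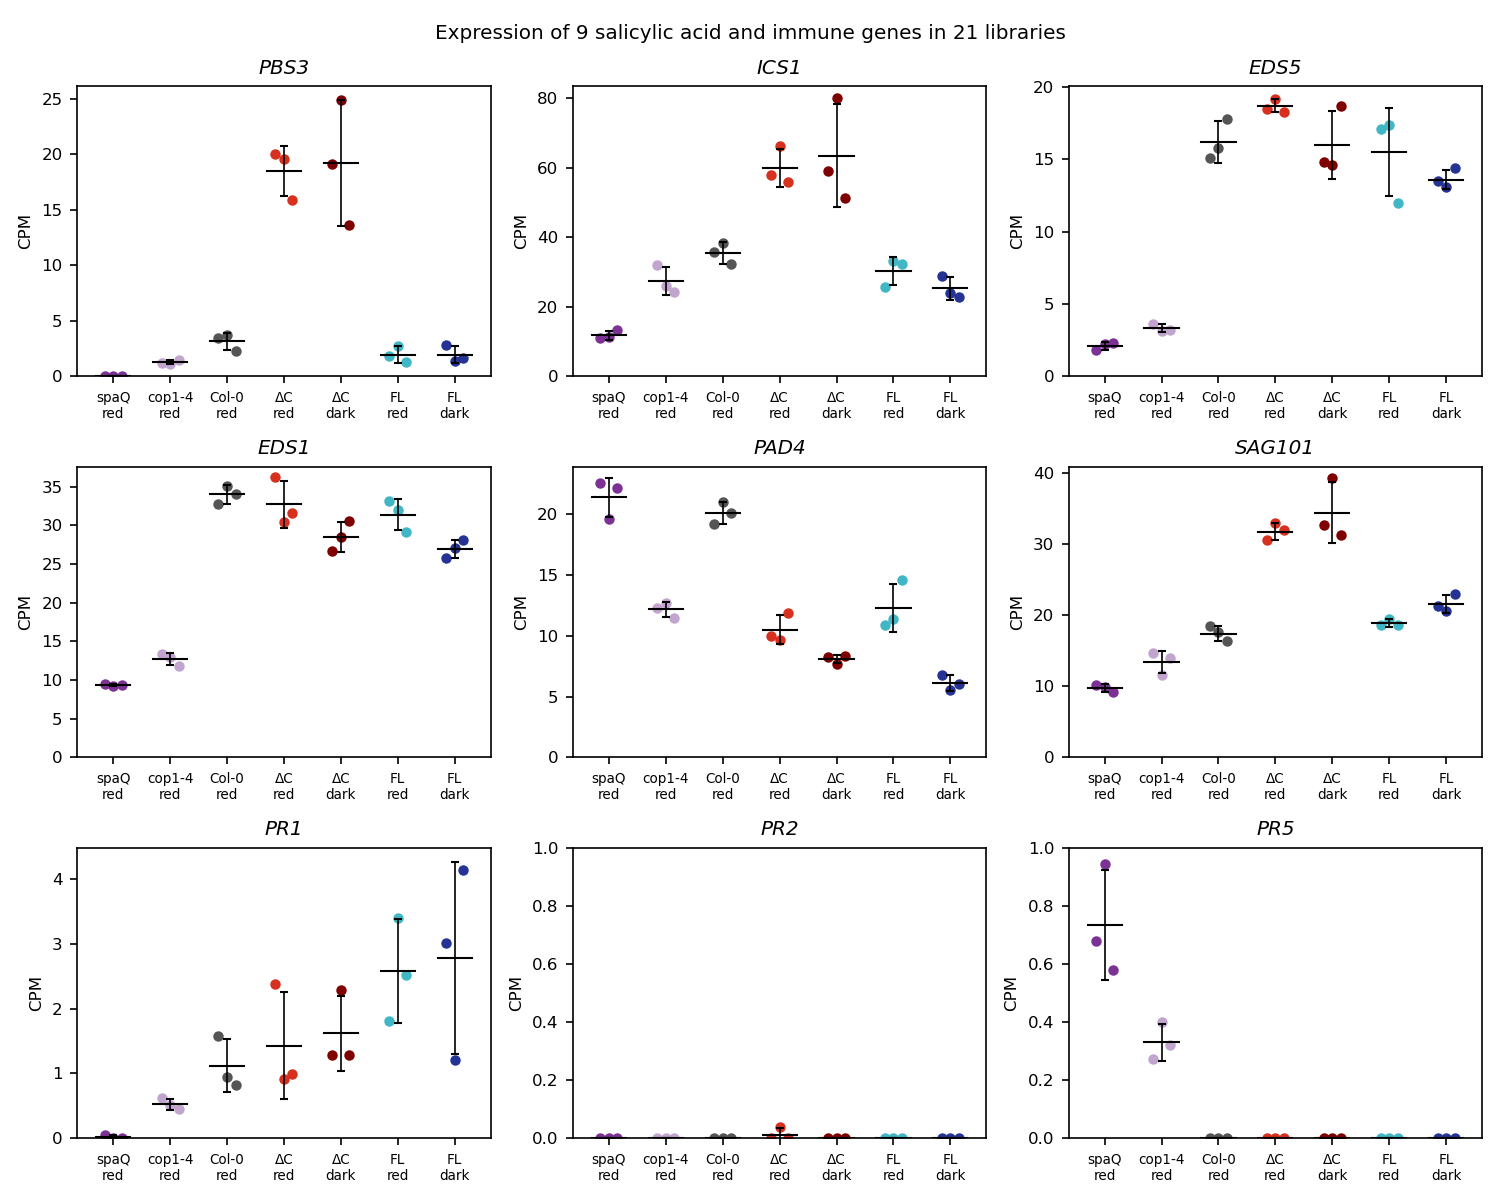
Expression of the 9 genes in 21 libraries. The vertical axes give CPM, points are libraries, horizontal bars are means and error bars are SD (n = 3 per group). *PBS3*, *ICS1* and *SAG101* were highest in *phyB-GFP ΔC* (ΔC), *EDS5* and *EDS1* were low in *spaQ* and *cop1-4*, and *PR5* had counts in *spaQ* and *cop1-4* and 0 in the other groups.

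*ICS1*, isochorismate synthase (listed as *EDS16* in the annotation), was likewise highest in *phyB-GFP ΔC* and lowest in *spaQ*, at a higher level and with smaller fold differences. It gave 57.9, 66.3 and 56 CPM in red light and 59.1, 80.1 and 51.4 CPM in darkness in *phyB-GFP ΔC*, against 25.6, 33.1 and 32.2 CPM in red light and 29, 24 and 22.9 CPM in darkness in *phyB-GFP FL*. The ΔC libraries did not overlap with the FL libraries. *spaQ* had 11.1, 11.2 and 13.2 CPM, *cop1-4* had 32.1, 26.1 and 24.4 CPM and Col-0 had 35.9, 38.5 and 32.2 CPM. *ICS1* in *spaQ* was below all other libraries. As levels per length (CPM per kilobase of exon), the means in Col-0 were 1.2 for *PBS3* and 16.3 for *ICS1*.

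*EDS5*, the transporter of isochorismate, was split otherwise. It gave 1.8, 2.2 and 2.27 CPM in *spaQ* and 3.63, 3.1 and 3.2 CPM in *cop1-4*, against 15.1, 15.8 and 17.8 CPM in Col-0. The *phyB-GFP* groups lay between 12 and 19.2 CPM. ΔC in red light (18.3 to 19.2 CPM) lay above Col-0, FL in darkness (13.1 to 14.4 CPM) below it, and the other two groups overlapped with it. *EDS5* overlaps AT4G39040, a gene on the opposite strand, by 213 exonic bases, and the strand setting of the counting is not given in the sources used here, so its counts are uncertain. AT4G39040 moved the other way, with log2 fold changes of 1.39 (SE 0.0514) in *spaQ* and 0.64 (SE 0.0543) in *cop1-4* over Col-0.

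Among the signalling genes, *EDS1* gave 9.49, 9.23 and 9.38 CPM in *spaQ* and 13.4, 13 and 11.8 CPM in *cop1-4*, against 32.8, 35.1 and 34.1 CPM in Col-0. The *phyB-GFP* groups had 25.8 to 36.2 CPM of *EDS1*, and ΔC and FL overlapped. *SAG101* was highest in *phyB-GFP ΔC*, with 30.5, 32.9 and 31.9 CPM in red light and 32.7, 39.3 and 31.2 CPM in darkness, against 18.6, 19.5 and 18.6 CPM in red light and 21.3, 20.5 and 23 CPM in darkness in *phyB-GFP FL*. It gave 10.2, 9.86 and 9.12 CPM in *spaQ*, 14.7, 11.6 and 13.9 CPM in *cop1-4* and 18.4, 17.6 and 16.3 CPM in Col-0. *PAD4* had an order of its own, with 22.6, 19.6 and 22.2 CPM in *spaQ* and 12.3, 12.7 and 11.5 CPM in *cop1-4*, against 19.2, 21 and 20.1 CPM in Col-0. *PAD4* was lowest in *phyB-GFP FL* in darkness, at 6.79, 5.53 and 6.04 CPM. The partners of EDS1 thus did not move together over the 7 groups. Of the 50-base windows of *EDS1* exons, 0.977% also occur in its neighbouring paralog AT3G48080, so the counting could assign few reads of either gene to the other.

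The marker genes had low counts, at most 78 in a library. *PR2* in every group, *PR5* outside the mutants and *PR1* in *spaQ* were under the floor of detection. *PR1* had 1, 0 and 0 counts in *spaQ* and 9, 9 and 7 counts in *cop1-4*, against 34, 20 and 20 counts in Col-0. In *phyB-GFP ΔC* it had 40, 24 and 25 counts in red light and 39, 73 and 32 counts in darkness, and in *phyB-GFP FL* it had 32, 66 and 48 counts in red light and 63, 28 and 78 counts in darkness. *PR1*, unlike *PBS3* and *ICS1*, overlapped between the *phyB-GFP* lines. *PR2*, a glucanase (listed as *BGL2*), had 0 counts in 20 libraries and 1 count in a ΔC red light library, and was not tested. *PR5*, a thaumatin-like protein, had 14, 18 and 11 counts in *spaQ* and 4, 7 and 5 counts in *cop1-4*, and 0 counts in each of the other 15 libraries.

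The comparison of *spaQ* with Col-0 asks what the loss of the SPA proteins changes in red light. Of the 8 members tested, 5 were lower in *spaQ*, 1 was higher and 2 did not pass (quasi-likelihood test of edgeR, adjusted after Benjamini-Hochberg over 20396 genes, with limits of 0.05 and 2-fold). Of all genes tested, 17.5% were called lower and 15.0% higher, and the median log2 fold change was -1.72 over the 8 members and 0.01 over all genes. *PR1* passed the filter on low counts only through Col-0 and *PR5* only through *spaQ*, the group where each was highest, so their tests and the counts over the tested members are no support for a direction. *PBS3* fell in *spaQ* with a log2 fold change of -6.26 (SE 0.468, adjusted p = 3.85e-12, same edgeR test). From the summed counts, 2 in *spaQ* and 208 in Col-0, it was 91 times lower in *spaQ* (95% interval of the counting error 24.9 to 756). *PR1* is given as a description only. With summed counts of 1 in *spaQ* and 74 in Col-0 it was 64.8 times lower in *spaQ* (11.3 to 2590). Its log2 fold change of -5.56 (SE 0.682) was -7.41 without the first *spaQ* library, the only one with a count. *EDS5* fell with a log2 fold change of -2.96 (SE 0.129), *EDS1* with -1.86 (SE 0.0751) and *ICS1* with -1.58 (SE 0.0941, adjusted p = 3.32e-14, same edgeR test). *SAG101* had a log2 fold change of -0.84 (SE 0.0935, adjusted p = 9.45e-09 by edgeR), short of the 2-fold limit, and -1.09 with scaling by library size alone. That scaling moved the median of all genes to -0.24 in *spaQ* and -0.20 in *cop1-4*, and the share of the called genes that were higher from 46.1% to 32.7% in *spaQ* and from 44.8% to 32.3% in *cop1-4*. *PAD4* did not pass, with 0.10 (SE 0.0748, edgeR adjusted p = 0.239, 0.0679 to 0.494 over the alternatives), and its sign turned to -0.15 with library size alone. *PR5*, the member called higher, had 43 counts in *spaQ* and none in Col-0, and was at least 5.46-fold higher in *spaQ* against a floor of 3 counts per Col-0 library.

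**Figure D2:**
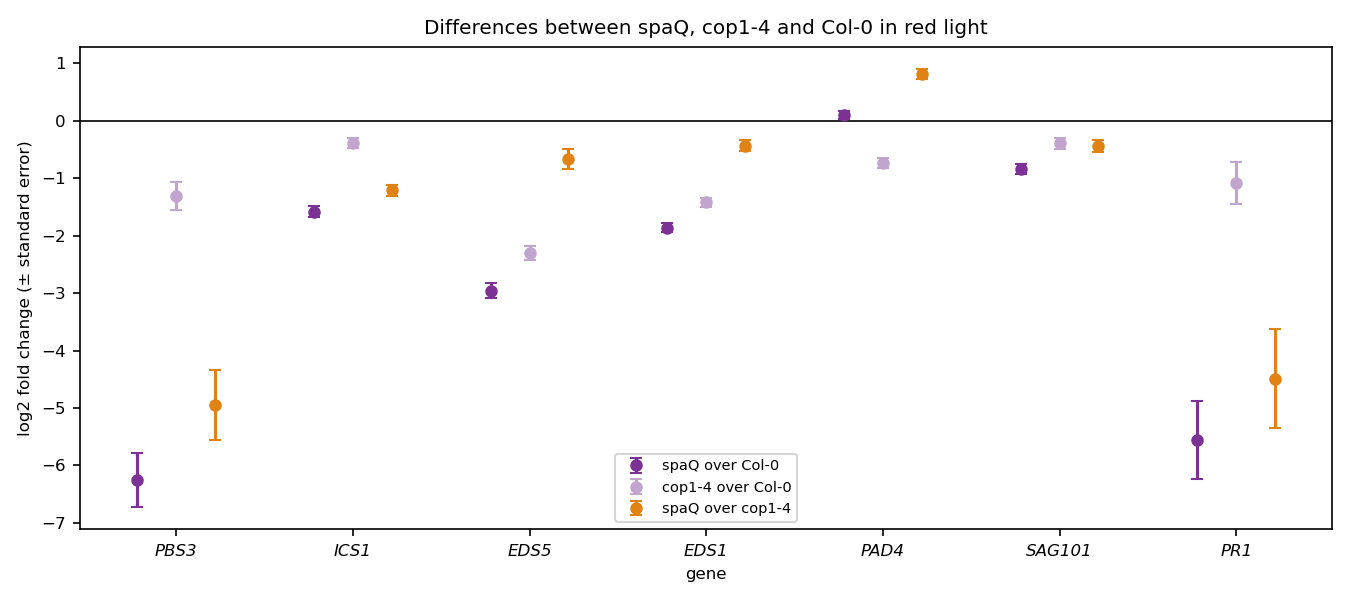
Log2 fold changes (vertical axis, ± standard error, edgeR) of 7 genes in red light for *spaQ* over Col-0, *cop1-4* over Col-0 and *spaQ* over *cop1-4*. *PBS3* and *PR1* lie at -6.26 and -5.56 for *spaQ* over Col-0, while *PAD4* lies at 0.10. *PR5*, absent from Col-0, and *PR2* are not drawn.

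In *cop1-4*, *EDS5*, *EDS1* and *PBS3* were lower than in Col-0. Of the 8 members tested, 4 were lower and 1 higher in *cop1-4*, against 13.1% of all genes lower and 10.7% higher by the same test, and the median log2 fold change was -0.90 over the members and 0.00 over all genes. Here too *PR1* passed the filter only through Col-0 and *PR5* only through *spaQ*, so their tests and these counts are no support for a direction. *EDS5* fell with -2.30 (SE 0.124), *EDS1* with -1.42 (SE 0.0742) and *PBS3* with -1.31 (SE 0.24, adjusted p = 2.74e-05, edgeR). The call of *PR1* was not stable. Its log2 fold change was -1.08 (SE 0.363, adjusted p = 0.0102 by edgeR), but -0.75 without the first Col-0 library (adjusted p = 0.0963, edgeR) and -0.97 without the third *cop1-4* library, under the 2-fold limit, and its adjusted p was 0.0579 with DESeq2 and 0.102 in a fit of all 21 libraries. *ICS1* (-0.38, SE 0.0858), *SAG101* (-0.39, SE 0.0922) and *PAD4* (-0.73, SE 0.084) passed the adjusted p but not the 2-fold limit. *PR5*, the member called higher, had 16 counts in *cop1-4* and none in Col-0, at least 2.49-fold higher in *cop1-4* against the same floor.

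The direct comparison of *spaQ* with *cop1-4* called 3 members lower and 1 higher in *spaQ*, against 5.63% of all genes lower and 2.88% higher, and the median was -0.55 over the members and 0.00 over all genes. Since *PR1* passed the filter on low counts only through Col-0 and *PR5* only through *spaQ*, their tests and these counts are no support for a direction. *PBS3* was lower in *spaQ* by a log2 fold change of -4.95 (SE 0.605, adjusted p = 1.64e-07, edgeR), *PR1* by -4.49 (SE 0.859) and *ICS1* by -1.21 (SE 0.1). From the summed counts *PBS3* was 36.8 times lower in *spaQ* than in *cop1-4* (9.75 to 311, counting error only). The value of *PR1* was -6.34 without the *spaQ* library that held its only count. *PAD4* went the other way with 0.82 (SE 0.0845, adjusted p = 8.62e-09, edgeR), short of 2-fold. *PR5* was 1.13 higher on the log2 scale (SE 0.426, adjusted p = 0.0301, edgeR), and the call was lost without the second *spaQ* library (0.91, adjusted p = 0.129), without the first (adjusted p = 0.094) or the third *cop1-4* library (adjusted p = 0.0833), with DESeq2 (adjusted p = 0.144) and when every gene with at least 1 count was tested (adjusted p = 0.0551). The comparisons with Col-0 share the Col-0 libraries.

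Marker transcripts of several tissues also differed between the mutants and Col-0. Over the 4 markers of root and root hair, the summed level was 116 to 131 CPM in *spaQ*, 121 to 140 CPM in *cop1-4* and 260 to 274 CPM in Col-0. The lower sum came from *CASP1* alone (24.7 ± 0.965 CPM in *spaQ*, 51.8 ± 5.1 CPM in *cop1-4* and 216 ± 7.89 CPM in Col-0, SD, n = 3), while *EXPA7* and *COBL9* were called higher in both mutants and the median of the 4 was 0.74 in *spaQ* and 0.83 in *cop1-4*. The 2 epidermis markers summed to 248 to 251 CPM in *spaQ*, 423 to 472 CPM in *cop1-4* and 893 to 952 CPM in Col-0, the 2 guard cell markers to 38.9 to 40.7 CPM, 36.2 to 37.8 CPM and 14 to 14.6 CPM in the same order, and *RBCS1A*, a gene that light itself induces, was at 18100 to 19500 CPM, 16500 to 18700 CPM and 4270 to 4530 CPM. *SUC2*, the marker of phloem companion cells, was at 57.7 to 62.4 CPM, 95.7 to 100 CPM and 107 to 111 CPM in the same order. The 2 markers of a dark-grown seedling, *PORA* and *PHYA*, summed to 359 to 401 CPM, 453 to 496 CPM and 1870 to 1930 CPM. *PORA* alone was at 4.31 ± 1.85 CPM in *spaQ* against 1230 ± 30.2 CPM in Col-0. No marker of these lists was at 0 in any group. The part of these differences in the values of the salicylic acid genes was not tested. In the *phyB-GFP* groups the same levels overlapped between ΔC and FL, except those of the epidermis and of *SUC2* in darkness. The epidermis markers summed to 943 to 1050 CPM in ΔC against 847 to 906 CPM in FL, and *SUC2* was at 114 to 119 CPM against 94.9 to 111 CPM.

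The other genes of the pathway were counted by list. Each count is to be read against the shares of all genes tested, 17.5% lower and 15.0% higher in *spaQ* than in Col-0, 13.1% lower and 10.7% higher in *cop1-4* than in Col-0, and 5.63% lower and 2.88% higher in *spaQ* than in *cop1-4*. Of the genes close to 0 counts in a mutant, *ALD1*, *FMO1*, *VSP1* and *VSP2* passed the filter only through Col-0. AT3G48080, *WRKY46* and *CBP60G* passed it through *cop1-4* and Col-0, where they were higher, and reached its minimum in no *spaQ* library. The counts of genes lower in *spaQ* in their lists are to be read with that limit. Of 12 tested genes of salicylic acid synthesis and turnover outside the members, 4 were lower and 2 higher in *spaQ* than in Col-0 (median log2 fold change -0.44). *PAL4*, a phenylalanine ammonia lyase of the alternative route, had 7.15 ± 0.915 CPM in *spaQ* against 120 ± 6.75 CPM in Col-0 (SD, n = 3), a log2 fold change of -4.06 (SE 0.0844). *UGT76B1*, which glucosylates salicylic acid, changed by -2.34 (SE 0.054), while *PAL3* rose by 1.58 (SE 0.108) and AT2G21340 by 1.59 (SE 0.0591). In *cop1-4*, 5 were lower and 2 higher (median -0.62), with *PAL4* at -3.21 (SE 0.0793) and *PAL1* at -1.94 (SE 0.0538) the lowest, and *PAL3* at 1.63 (SE 0.11) and AT2G21340 at 1.44 (SE 0.0607) the highest. *PAL1* was the only gene of this list called between the mutants, 1.27 higher in *spaQ* (SE 0.0538, median of the list 0.05).

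Of 7 other immune signalling genes, 2 were lower and 1 higher in *spaQ* than in Col-0 (median -0.73), and 1 was lower and 1 higher in *cop1-4* (median -0.21). The locus next to *EDS1*, AT3G48080, had 0.154 ± 0.0534 CPM in *spaQ* against 5.86 ± 0.591 CPM in Col-0 (SD, n = 3), a log2 fold change of -5.19 (SE 0.271), and -2.63 (SE 0.198) in *cop1-4*. Between the mutants AT3G48080 was the only call of the list, at -2.56 (SE 0.421, median -0.24). *ADR1*, a helper immune receptor that works with EDS1 and PAD4, rose by 1.43 in *spaQ* (SE 0.0591) and by 1.14 in *cop1-4* (SE 0.0615), where scaling by library size left 0.94, under the limit. AT5G66910 was at -1.62 in *spaQ* (SE 0.0964).

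Of 13 tested genes of salicylic acid perception, 2 were lower in *spaQ* than in Col-0 and none higher (median 0.03), near the 17.5% of all genes called lower, namely *NPR3*, a receptor of the hormone, with -1.24 (SE 0.0619) and *TGA7*, a bZIP factor, with -1.06 (SE 0.077). In *cop1-4* *NPR3* was lower, with -1.15 (SE 0.0633), and *TGA4* higher, with 1.04 (SE 0.0681), and the median was -0.21. The *TGA4* call was lost with library size alone (0.84) and at the limit without the first Col-0 library (1.00). None of these 13 genes was called between the mutants (median -0.16).

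Of 9 tested transcription factors of the pathway, 4 were lower and 1 higher in *spaQ* than in Col-0 (median -0.58). *WRKY46* had 0.359 ± 0.159 CPM in *spaQ* against 4.13 ± 0.501 CPM in Col-0 (SD, n = 3), with -3.50 (SE 0.275), and *CBP60G*, an activator of *ICS1*, changed by -2.51 (SE 0.29). *WRKY28* was 1.18 higher (SE 0.278), and fell under the limit without the third *spaQ* library (0.98), without the third Col-0 library (0.91) and with library size alone (0.93). In *cop1-4* 2 were lower and 1 higher (median -0.35), *WRKY70* with -1.68 (SE 0.209), *WRKY46* with -1.67 (SE 0.221) and *WRKY28* with 1.79 (SE 0.265). Between the mutants, 3 were lower and 1 higher in *spaQ* (median -0.36), among them *CBP60G* with -2.11 (SE 0.322), *WRKY53* with -1.97 (SE 0.298) and *WRKY18* with 1.16 (SE 0.0965).

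*ALD1* and *FMO1*, which start and end the synthesis of N-hydroxypipecolic acid, a second signal of systemic resistance, were low in *spaQ*. *ALD1* had 0 counts in *spaQ* and 90 in Col-0, at least 8.75-fold lower in *spaQ* against a floor of 3 counts per library. *FMO1* had 1 count in *spaQ* and 170 in Col-0, 149 times lower in *spaQ* (26.3 to 5910, counting error only). *AZI1*, a lipid transfer protein, was at 257 ± 27.2 CPM in *spaQ* against 87.3 ± 1.65 CPM in Col-0 (SD, n = 3), a log2 fold change of 1.56 (SE 0.0623). The other tested gene of the list, AT5G52810, had 9.58 ± 0.572 CPM in *spaQ* against 8.57 ± 0.819 CPM in Col-0 and did not pass (log2 fold change 0.17, adjusted p = 0.143, edgeR). Of the 4 tested genes 2 were lower and 1 higher in *spaQ* (median -3.30, or -1.48 with *ALD1* at its bound). *ALD1* and *FMO1* passed the filter on low counts only through Col-0, so the counts and medians of this list are no support for a direction. In *cop1-4* *ALD1* changed by -3.15 (SE 0.464), from 7 counts, and by -4.22 without the second *cop1-4* library. *FMO1* changed by -2.06 (SE 0.335), and by -2.68 without the first *cop1-4* library, and none of the 4 rose (median -1.01). Between the mutants 2 were lower in *spaQ* and *AZI1* was higher, by 1.52 (SE 0.0633), and the median was -2.26, but 0.02 with *ALD1* set to no change. *FMO1* was 35.6 times lower in *spaQ* than in *cop1-4* (5.9 to 1450). *ALD1*, with 0 counts in *spaQ* and 7 over the *cop1-4* libraries, was under the floor in both groups, and its call was lost without the second *cop1-4* library (adjusted p = 0.103, edgeR).

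The markers of jasmonate and ethylene, hormones that often oppose salicylic acid, were counted as well. Of 6 tested, 5 were lower in *spaQ* than in Col-0 and none higher (median -2.45), and 3 were lower in *cop1-4* (median -1.17). *VSP1* and *VSP2* passed the filter on low counts only through Col-0, where they were highest. The counts and medians of this list are therefore no support for a direction. The storage protein genes *VSP1* and *VSP2* had the largest changes of this list, 104 times lower in *spaQ* for *VSP1* from 2 and 237 counts (28.4 to 861) and a log2 fold change of -4.59 (SE 0.338) for *VSP2*. In *cop1-4* *VSP2* changed by -3.07 (SE 0.287) and *VSP1* by -2.99 (SE 0.293). Between the mutants 4 were lower in *spaQ* (median -1.46), *VSP1* with 2 counts in *spaQ* against 21 in *cop1-4* and *PR3*, a basic chitinase listed as *HCHIB*, by a log2 fold change of -1.78 (SE 0.133).

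*PBS3* belongs to the GH3 family, whose other members mostly conjugate auxin and jasmonate. Of 14 tested relatives, 4 were lower and 2 higher in *spaQ* than in Col-0 (median -0.53), with *GH3.2* (listed as *BRU6*) at -3.18 (SE 0.143) and *GH3.5* (listed as *WES1*) at -2.69 (SE 0.0623) the lowest and *GH3.9* at 1.51 (SE 0.226) and AT5G13370 at 1.12 (SE 0.052) the highest. AT5G13370 fell under the limit with library size alone (0.87). In *cop1-4* 5 were lower and 1 higher (median -0.46), with AT1G48660 at -2.02 (SE 0.207), AT1G48670 at -1.76 (SE 0.228) and *GH3.9* at 2.49 (SE 0.205). Between the mutants 2 were lower in *spaQ* and 1 higher (median -0.36), with *GH3.2* at -1.80 (SE 0.171), *GH3.5* at -1.26 (SE 0.0668) and AT1G48660 at 1.57 (SE 0.22). None of the 14 had a change in *spaQ* as large as that of *PBS3*.

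Between the *phyB-GFP* lines the members fell into those that were higher in ΔC and those that overlapped or stayed under 1.5-fold. In red light 3 of the 7 members fitted were over 1.5-fold higher in ΔC with libraries that did not overlap with those of FL, as were 1.46% of all genes, and in darkness the same 3 members and 1.70% of all genes. *PBS3* was higher in ΔC by a log2 fold change of 3.24 in red light (SE 0.29) and 3.3 in darkness (SE 0.282). *ICS1* was higher by 0.99 in red light (SE 0.152) and 1.32 in darkness (SE 0.152), and *SAG101* by 0.75 in red light (SE 0.0896) and 0.66 in darkness (SE 0.0872). In the same order *EDS1* lay at 0.06 and 0.07, *EDS5* at 0.27 and 0.22 and *PAD4* at -0.22 and 0.40. *PR1* was lower in ΔC, at -0.94 (SE 0.468) in red light and -0.75 (SE 0.431) in darkness, with libraries that overlapped. Without the third red light library of *phyB-GFP FL*, the red light values were 2.99 for *PBS3*, 0.12 for *EDS5* and -0.08 for *PAD4*. Without each of the 12 libraries in turn, *PBS3* stayed between 2.99 and 3.58 in red light and between 3.07 and 3.67 in darkness. *SAG101* in darkness lay between 0.56 and 0.73 in the same checks, under 1.5-fold only without the second dark library of ΔC. The median over the 7 members was 0.27 in red light and 0.40 in darkness, against -0.01 and 0.00 over all genes. *PBS3* was chosen for its difference between these lines and the other members as its pathway. The counts and medians of the members between the lines are therefore no support for a direction.

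Of the other genes of the 7 lists, *WRKY46* was over 1.5-fold higher in ΔC without overlap in both light conditions, AT4G10500 in darkness only (0.435 ± 0.166 CPM in ΔC against 0.176 ± 0.0345 CPM in FL, SD, n = 3 each) and *WRKY54* in red light only (0.74 ± 0.126 CPM in ΔC against 0.446 ± 0.03 CPM in FL), without a test of either difference between light conditions, and AT4G10500 and *WRKY54* were picked out after their values were seen. The 7 lists held 13, 7, 13, 11, 4, 6 and 15 fitted genes. Among all genes, 1.46% in red light and 1.70% in darkness met the same limits, so these few genes are not read as a result about the lists. *WRKY46* gave a mean of 10 ± 1.28 CPM in ΔC against 2.55 ± 0.384 CPM in FL in red light and 9.88 ± 2.15 CPM in ΔC against 2.7 ± 0.342 CPM in FL in darkness (SD, n = 3 each), log2 fold changes of 1.98 (SE 0.184) and 1.87 (SE 0.177). The medians of the 7 pathway lists lay between -0.05 and 0.39 in red light and between -0.27 and 0.13 in darkness. The protein-coding genes on either side of *PBS3*, 5 on each, were examined as well. The 8 of them that passed the expression filter lay between -0.35 and 0.13 on the log2 scale between ΔC and FL in both light conditions. In *spaQ*, these neighbours lay on both sides of 0 relative to Col-0, from -1.21 (*CRN*) to 1.2 (*AK-LYS1*).

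**Figure D3:**
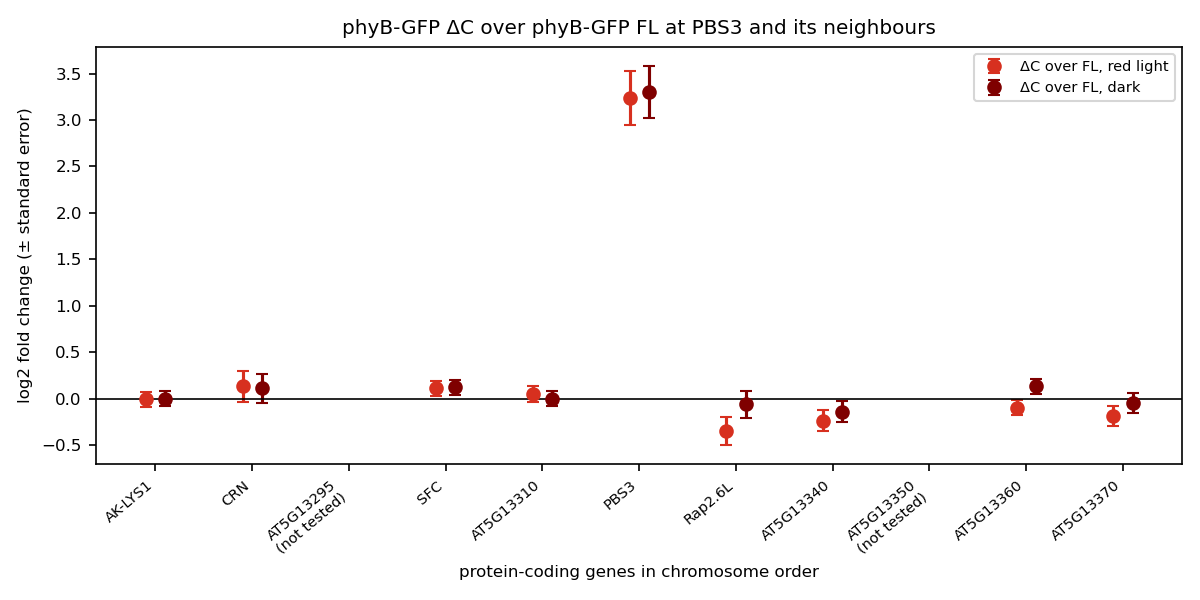
Log2 fold changes of *phyB-GFP ΔC* over *phyB-GFP FL* (vertical axis, ± standard error) for *PBS3* and 5 protein-coding genes on either side in chromosome order (horizontal axis), in red light and darkness. *PBS3* stands at 3.24 in red light and 3.3 in darkness, and the 8 neighbours that were fitted lie between -0.35 and 0.13.

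The comparison of red light with darkness within each line asks which members respond to 1 h of light. In *phyB-GFP FL*, 1 of 7 members was called, *PAD4*, against 3.28% of all genes that rose (edgeR as above over 20459 genes, with limits of 0.05 and 1.5-fold). *PAD4* gave 10.9, 11.4 and 14.6 CPM in red light against 6.79, 5.53 and 6.04 CPM in darkness, libraries that did not overlap, and rose by 0.99 on the log2 scale (SE 0.132, adjusted p = 0.000171, edgeR). Its value was 0.85 without the third red light library. In *phyB-GFP ΔC* none of the 7 members was called (0 by edgeR and by DESeq2), against 2.88% of all genes in either direction. *EDS1* and *PAD4* had an unadjusted p under 0.05 in ΔC, and *EDS1* and *SAG101* had one in FL besides the called *PAD4* (edgeR). *PAD4* gave 9.99, 9.7 and 11.9 CPM in red light against 8.22, 7.72 and 8.37 CPM in darkness in ΔC, with a log2 fold change of 0.37 (SE 0.125, adjusted p = 0.141, edgeR, 0.0307 to 0.511 over the alternatives). The difference between the lines in the response of *PAD4*, ΔC minus FL, was -0.62 (SE 0.182, unadjusted p = 0.00459) and did not pass after adjustment (adjusted p = 0.562, edgeR, 0.105 to 1 over the alternatives). It was -0.48 without the third red light library of FL. No member passed this test of the interaction (0 by edgeR and by DESeq2, 1 at an unadjusted p under 0.05), nor did more than 0.103% of all genes.

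*PBS3* showed no detectable response to red light in either line. Its log2 fold change was -0.08 in ΔC (SE 0.217, edgeR adjusted p = 0.951) and -0.01 in FL (SE 0.378, edgeR adjusted p = 0.996), and the difference between them was -0.07 (SE 0.436). Without the third red light library of FL, the response in FL was 0.24 for *PBS3* and 0.32 for *EDS5*, and the difference between the lines was -0.32 for *PBS3* and -0.11 for *EDS5*. *ICS1* lay at -0.09 in ΔC (SE 0.145) and 0.24 in FL (SE 0.156), *SAG101* at -0.13 (SE 0.0851) and -0.21 (SE 0.0914), *EDS1* at 0.18 (SE 0.0837) and 0.19 (SE 0.0858), and *EDS5* at 0.21 (SE 0.129) and 0.16 (SE 0.136). *PR1* had the widest errors, with -0.29 in ΔC (SE 0.47) and -0.10 in FL (SE 0.43). The median over the 7 members was -0.08 in ΔC and 0.16 in FL, against -0.01 and 0.00 over all genes.

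**Figure D4:**
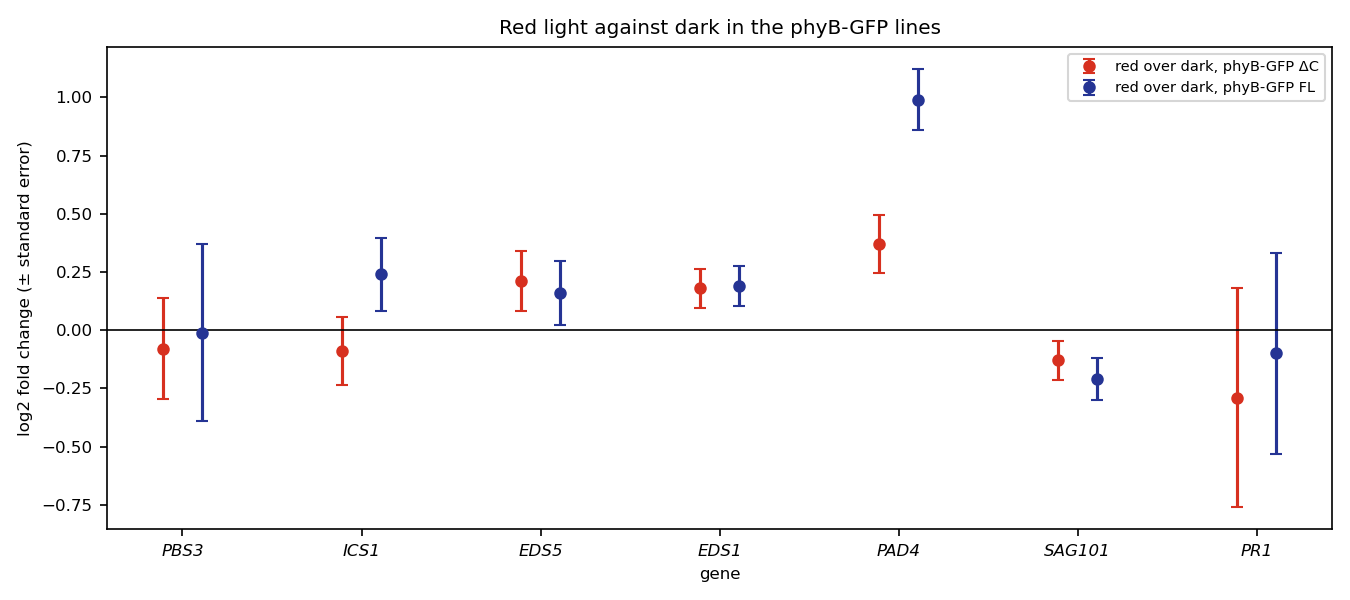
Log2 fold changes of red light over darkness (vertical axis, ± standard error, edgeR) in *phyB-GFP ΔC* and *phyB-GFP FL* for the 7 members fitted. *PAD4* lies at 0.37 in ΔC and 0.99 in FL, and the other members lie between -0.29 and 0.24.

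The pathway lists held few light responses. *GH3.10* (listed as *DFL2*) rose in red light in both lines, with 22.3 ± 1.29 CPM in red light against 12 ± 1.9 CPM in darkness in ΔC and 26.6 ± 0.587 CPM against 9.49 ± 0.497 CPM in FL (SD, n = 3 each), log2 fold changes of 0.89 (SE 0.1) and 1.46 (SE 0.105). *WRKY28* was lower in red light in FL, at -0.99 (SE 0.279, adjusted p = 0.042, edgeR), with 0.635 ± 0.218 CPM in red light against 1.25 ± 0.158 CPM in darkness. That call was lost in most alternatives, with adjusted p-values from 0.0182 to 0.16, and in 9 of the 12 fits that left out a library. Of the remaining genes of the 7 lists none was called in either line, and none passed the interaction.

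Over the 21 libraries, the members differed in how closely they followed *PBS3*. Pearson's r of log2 CPM with *PBS3* was 0.978 for *ICS1*, 0.941 for *SAG101*, 0.806 for *EDS5*, 0.773 for *EDS1*, 0.703 for *PR1* and -0.53 for *PAD4*. Within the 12 *phyB-GFP* libraries it was 0.961 for *ICS1* and 0.953 for *SAG101*, but 0.242 for *EDS1* and -0.478 for *PR1*. *EDS1* and *EDS5* had an r of 0.988 with each other over the 21 libraries. The libraries fall into 7 groups of 3, so these values describe differences between groups and carry no test.

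With the members left out, 17676 genes whose mean log2 CPM reached 1 were ranked by their r to *PBS3*. The 5 highest were AT2G22942 (0.987), AT1G21520 (0.979), AT1G43910 (0.976), *WRKY46* (0.973) and *PUB54* (AT1G01680, 0.971). *ICS1*, a member and so not ranked, had an r of 0.978, above that of AT1G43910. AT2G22942 averaged 11.3 CPM in ΔC against 1.66 CPM in FL in darkness, and in red light 0.0176 CPM in *spaQ*, 1.09 CPM in *cop1-4* and 2.09 CPM in Col-0. *PUB54*, a U-box protein gene, averaged 11.4 CPM in ΔC against 1.61 CPM in FL in red light. AT1G43910 was the most abundant of the 5, at 61.7 CPM in ΔC against 16.8 CPM in FL in red light. Ranking by the 7 group means shared 3 of these 5 genes, and ranking by Spearman's rho over the libraries shared 2.

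**Figure D5:**
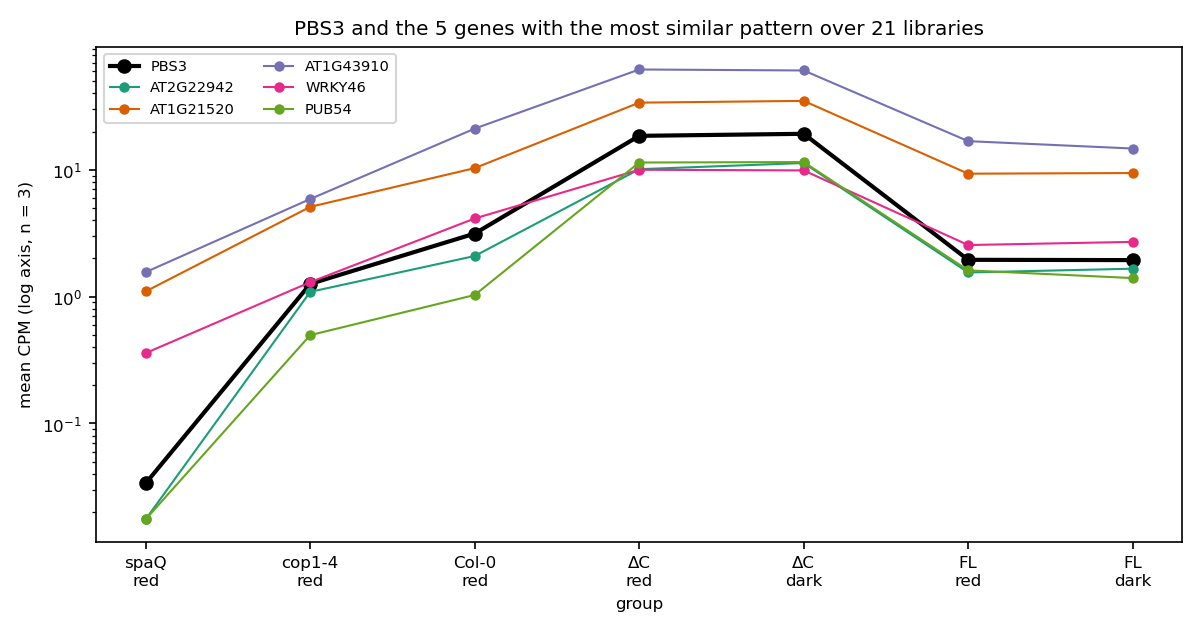
Mean CPM (vertical log axis, n = 3) of *PBS3* and the 5 genes most like it, members left out, over the 7 groups (horizontal axis). All 6 were highest in *phyB-GFP ΔC* and lowest in *spaQ*, where the means of *PBS3* (0.0338 CPM), AT2G22942 and *PUB54* lie under the floor of 3 counts.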

How the data were processed

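Reads of 21 libraries were aligned by the authors with TopHat and Bowtie2 to TAIR10, and the deposited values are raw counts made with HTSeq-count 0.8.0 and not normalized. The table holds 33655 features. Counts were fitted with edgeR 4.0.16 in R 4.3.3 (TMM factors, filterByExpr by group, quasi-likelihood test, Benjamini-Hochberg adjustment), with *spaQ*, *cop1-4* and Col-0 in a fit of 9 libraries (20396 genes, 2-fold limit) and the *phyB-GFP* lines in a fit of 12 (20459 genes, 1.5-fold limit). The methods write these limits as log2 values of 2 and 1.5. Correlations used log2 CPM with a prior count of 2. Library depth sets the floor of 3 counts per library at 0.102 to 0.191 CPM, and floors and intervals (exact, 95%) cover counting error only. Scripts were tested on simulated data. Symbols, coordinates and sequences come from RefSeq's TAIR10.1. The members and the pathway and marker lists were chosen with earlier results of these data known. The text names each member and up to 2 called genes per list, direction and comparison. It also names the 5 genes outside the members most like *PBS3* and 5 neighbours on either side of *PBS3*. Alternatives were DESeq2 1.42.0, its size factors, library size alone, other filters, other fold limits, a fit of 21 libraries, a replicate block, and leaving out each library. Libraries of the mutants or Col-0 kept in darkness were not analysed here.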

Additional observations from a re-analysis of the deposited data

How the results depend on the processing

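The 6 members called between *spaQ* and Col-0 were 3, the 5 between *cop1-4* and Col-0 were 2 and the 4 between *spaQ* and *cop1-4* were 1 when at least 10 counts were required in every library, since *PBS3*, *PR1* and *PR5* were then not tested. Without a fold limit 8 members were called between *cop1-4* and Col-0 and 8 between *spaQ* and *cop1-4*, and with the limits as the methods write them 2, 2 and, between red light and darkness in *phyB-GFP FL*, 0. Between *spaQ* and Col-0, the calls of *ICS1* (-1.58) and *EDS1* (-1.86) were lost with the limit of the methods, and *SAG101* (-0.84) was called without a fold limit. Of the 5 genes outside the members most like *PBS3*, 3 were shared with the ranking by group means and 2 with that by Spearman's rho. *PAD4* between *spaQ* and Col-0 turned to -0.15 with library size alone, and *PBS3* between red light and darkness in *phyB-GFP FL* to 0.015 in a fit of 21 libraries. When each library was left out in turn, signs turned for changes that had not been called. Between red light and darkness these were *PBS3* (-0.35 to 0.36) and *PR1* (-0.49 to 0.30) in *phyB-GFP FL*, and *PBS3* (-0.27 to 0.16), *ICS1* (-0.22 to 0.11) and *PR1* (-0.80 to 0.054) in *phyB-GFP ΔC*. Between ΔC and FL in red light it was *EDS1* (-0.02 to 0.12). In the interaction they were *PBS3* (-0.43 to 0.27), *EDS5* (-0.11 to 0.17), *EDS1* (-0.08 to 0.059) and *PR1* (-0.69 to 0.19). The causes of these turns were not tested.

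Same-numbered libraries did not deviate together in every pair of any comparison (mean correlation between -0.242 and 0.117), so the numbers do not pair the samples. With a replicate block, 6, 5, 4, 1 and 0 members were called in the 5 tested comparisons other than the interaction, as without it. It moved the call of *WRKY28* in *phyB-GFP FL* (adjusted p = 0.0774, edgeR). Over all genes the interaction had 21 calls, but 9 with the block, 32 with every gene of at least 1 count, 80 with DESeq2, 105 in a fit of 21 libraries and 6 to 38 without 1 library. Between *spaQ* and *cop1-4* 1737 genes were called, and 919 with at least 10 counts in every library. With the limits of the methods the all-gene calls were 2369 (*spaQ* and Col-0), 1501 (*cop1-4* and Col-0), 526 (*spaQ* and *cop1-4*), 234 (light in FL) and 114 (light in ΔC), against 6630, 4850, 1737, 1023 and 590, and without a fold limit 16190, 14870, 10762, 1824 and 1055. At these depths *PR2* and the low counts of *PR1* and *PR5* limit what can be seen.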
